A study of Mus musculus with 12 samples.

Results

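The small heat shock protein genes were followed in aortic tissue of mice given CM-695 or vehicle. The 7 genes were chosen by their symbols in the platform annotation, and 6 of them, Hspb1, Hspb3, Hspb6, Hspb7, Hspb8 and Cryab, had a probe set that names no other gene. Hspb2 had only a probe set that names Hspb2 and Cryab together, so it has no value of its own. The 6 stand among 22180 genes with such a probe set. CM-695 was injected into the peritoneum of 6 female mice of the outbred CD-1 stock at 80 mg/kg, 2 h and again 1 h before sacrifice, and 6 others received saline. The labels name no engineered allele. By the series design vehicle was injected 1 time only. CM-695 inhibits histone deacetylase 6 and phosphodiesterase 9, and all mice were perfused with phosphate buffered saline before the aortic vessel was taken. No source used here states their age. Each mouse had its own Affymetrix array, and all values are RMA log2 values, in which 1 unit is a doubling.

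Small heat shock proteins share the alpha-crystallin domain, form oligomers, and hold unfolding proteins in a soluble state without using ATP, from which HSP70 can refold them. Hspb1 and Cryab are made in many stressed cells, whereas Hspb2, Hspb3, Hspb6, Hspb7 and much of Cryab belong to heart, skeletal and smooth muscle. In the vessel wall HSPB6, also called HSP20, is a substrate of the cyclic nucleotide-dependent kinases and takes part in smooth muscle relaxation. HSPB8 works with the co-chaperone BAG3 in the removal of damaged filament proteins by autophagy. Heat shock factor 1 binds inverted repeats of the letters GAA, the heat shock element, in the promoters of inducible members.

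Promoter windows of some members are shown here, with and without the letters of that element. The upstream window of Hspb6, which has no match, and the window of Hspb3, which has a match, are described but not printed. Sequences are from RefSeq (GRCm38.p6), each from 250 bases before to 50 bases after an annotated start site, 5′ to 3′ on the strand of the gene. Capitals mark a 2-unit heat shock element, which is GAA, any 2 bases and TTC, or TTC, any 2 bases and GAA; each pattern is its own reverse complement, so both strands are covered.
Hspb1 (chr5:135887669-135887968, plus strand): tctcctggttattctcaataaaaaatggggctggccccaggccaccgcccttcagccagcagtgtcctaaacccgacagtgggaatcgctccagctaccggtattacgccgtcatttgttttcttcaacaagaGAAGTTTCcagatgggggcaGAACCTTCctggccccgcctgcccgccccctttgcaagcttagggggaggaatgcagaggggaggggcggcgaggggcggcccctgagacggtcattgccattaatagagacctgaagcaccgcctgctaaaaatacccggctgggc
Hspb8 (chr5:116422815-116423114, minus strand): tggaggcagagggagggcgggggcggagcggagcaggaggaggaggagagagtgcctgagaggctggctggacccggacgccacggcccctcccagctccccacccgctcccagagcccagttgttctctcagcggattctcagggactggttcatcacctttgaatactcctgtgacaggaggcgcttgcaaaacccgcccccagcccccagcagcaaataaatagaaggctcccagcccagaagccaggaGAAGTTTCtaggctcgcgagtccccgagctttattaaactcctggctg
Hspb6, downstream start (chr7:30553051-30553350, plus strand): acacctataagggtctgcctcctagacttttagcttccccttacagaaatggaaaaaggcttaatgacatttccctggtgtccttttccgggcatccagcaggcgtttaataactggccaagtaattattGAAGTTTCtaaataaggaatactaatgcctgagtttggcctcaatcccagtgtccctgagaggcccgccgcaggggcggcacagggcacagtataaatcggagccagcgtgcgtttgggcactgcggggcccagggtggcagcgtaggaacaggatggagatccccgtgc
Hspb7 (chr4:141420529-141420828, plus strand): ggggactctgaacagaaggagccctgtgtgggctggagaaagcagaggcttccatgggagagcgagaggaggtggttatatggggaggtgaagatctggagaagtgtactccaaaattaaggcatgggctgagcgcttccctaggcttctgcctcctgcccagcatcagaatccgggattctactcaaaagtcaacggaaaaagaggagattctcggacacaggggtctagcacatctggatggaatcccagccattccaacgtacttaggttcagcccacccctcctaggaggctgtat

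The Hspb1 window held 2 matches, GAAGTTTC with its first base at -117 and GAACCTTC at -97 from the start site. The Hspb8 window held GAAGTTTC at base 3 after the start site. In Hspb6 the upstream of 2 annotated windows held no match and the downstream one held GAAGTTTC at -120, with TATAAA at -29. Hspb3 held GAATTTTC at -224 and a TATAAA at -11, and Hspb7 held neither. The 2-unit element occurred in 15.1% of 32851 promoter windows of the same length and TATAAA in 13.6%. No window of a member held the 3-unit form, which adds 2 bases and the opposite unit to the 2-unit form it contains (0.603% of windows), or a CArG box, the binding site of serum response factor (1.63% of windows). Matches are letters only, and none was tested for binding. Hspb2 and Cryab are not in the promoter table; in the RefSeq gene table Hspb2 lies inside the span of Cryab.

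The members split in direction, and none of the 6 passed the test across all probe sets (limma, Benjamini-Hochberg adjusted p under 0.05), a threshold that 0.155% of the 41345 probe sets passed. Hspb1 and Hspb8 were higher on average after CM-695, Hspb7, Cryab and Hspb6 were lower, and Hspb3 had nearly the same mean in both groups. With Hspb3 (0.01) counted as above 0, 3 members lay above 0 and 3 below. Of all genes 55.3% lay above and 44.7% below, so the split was near that of all genes. At an unadjusted p under 0.05, 1 member was higher (4.96% of genes were) and 2 were lower (4.14% of genes). The median difference of the 6 was -0.11, against 0.02 for all genes. In all 6 the SD was larger among CM-695 mice than among vehicle mice, from 1.52 times for Hspb3 to 2.55 times for Hspb8. The same held for 56.2% of all genes, 61.5% of genes brighter than the median, all 9 smooth muscle markers and both actins.

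**Figure D1:**
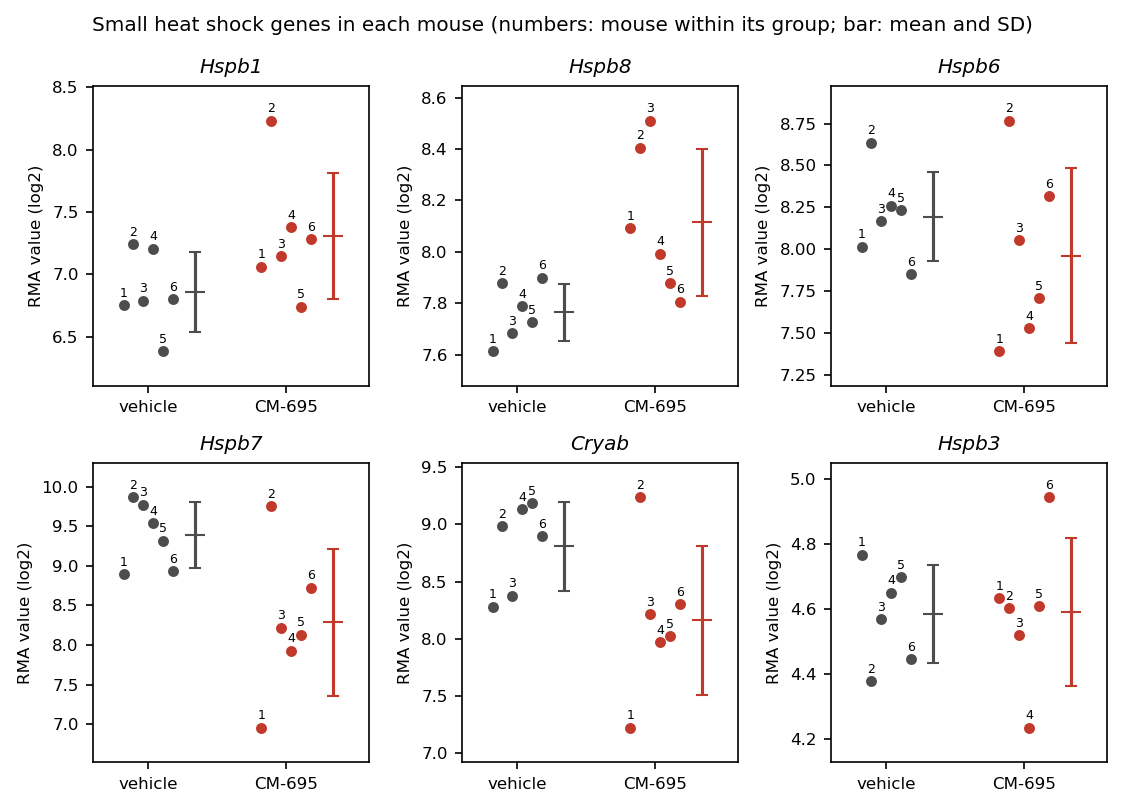
RMA log2 values of the 6 measured small heat shock genes in each of 12 mice, with points numbered by mouse within the group and bars for mean and SD. CM-695 mouse 2 was the highest treated mouse for Hspb1, Hspb6, Hspb7 and Cryab, and CM-695 mouse 1 the lowest for Hspb6, Hspb7 and Cryab.

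Hspb1, whose product HSP25 protects actin filaments and is a substrate of the p38 pathway kinases, measured 6.75, 7.24, 6.79, 7.20, 6.38 and 6.80 in vehicle mice 1 to 6. In CM-695 mice 1 to 6 it measured 7.06, 8.23, 7.15, 7.38, 6.74 and 7.28. The groups overlapped: 3 of 6 treated mice lay above the highest vehicle mouse, mouse 2 by far the most. The means were 6.86 ± 0.32 and 7.31 ± 0.50 (SD, n = 6 each). CM-695 exceeded vehicle by 0.45 (SE 0.22), with a 95% interval of -0.03 to 0.92 and a limma adjusted p of 0.574. Without CM-695 mouse 2 the difference was 0.26. A second, dimmer probe set that names Hspb1 measured 4.70 ± 0.27 and 4.60 ± 0.30 (SD, n = 6 each) and differed by -0.10 (SE 0.16, interval -0.44 to 0.24, adjusted p = 0.884). It lay at the array median, where weak expression and none are not separated. Its interval overlapped that of the brighter probe set, which does not show that the probe sets agree. With the Hspb1 probe sets averaged, the difference was 0.17 (SE 0.16, limma adjusted p = 0.749). All further Hspb1 values are from the brighter probe set.

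Hspb8, the BAG3 partner, measured 7.61, 7.88, 7.68, 7.79, 7.73 and 7.90 in vehicle mice 1 to 6. It measured 8.09, 8.41, 8.51, 7.99, 7.88 and 7.81 in CM-695 mice 1 to 6. Vehicle mice lay close together, and 4 of 6 treated mice were above all of them, with mice 2 and 3 highest. The means were 7.76 ± 0.11 and 8.11 ± 0.29 (SD, n = 6 each), a difference of 0.35 or 1.27-fold (SE 0.13, interval 0.08 to 0.62, limma unadjusted p = 0.0156, adjusted p = 0.412).

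Hspb7, the cardiovascular small heat shock protein, which binds filamin C and keeps sarcomeric actin in order, showed the largest difference among the members. It measured 8.90, 9.87, 9.77, 9.54, 9.32 and 8.93 in vehicle mice 1 to 6. It measured 6.96, 9.76, 8.22, 7.93, 8.13 and 8.73 in CM-695 mice 1 to 6. In 5 of 6 treated mice the value was below the lowest vehicle mouse, and mouse 2 alone stood inside the vehicle range. The means were 9.39 ± 0.41 and 8.29 ± 0.92 (SD, n = 6 each), a difference of -1.10 or 2.14-fold (SE 0.36, interval -1.88 to -0.32, limma unadjusted p = 0.00960, adjusted p = 0.356). Leaving out 1 mouse gave -1.39 (adjusted p = 0.0832, without CM-695 mouse 2) to -0.83 (adjusted p = 0.508, without CM-695 mouse 1).

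Cryab, alpha B-crystallin, which guards desmin and titin in muscle, measured 8.28, 8.98, 8.38, 9.13, 9.19 and 8.90 in vehicle mice 1 to 6. It measured 7.22, 9.24, 8.21, 7.97, 8.03 and 8.30 in CM-695 mice 1 to 6. Here 4 treated mice lay below the vehicle range, mouse 6 just inside it and mouse 2 above it. The means were 8.81 ± 0.39 and 8.16 ± 0.65 (SD, n = 6 each). The difference was -0.65 (SE 0.28, interval -1.24 to -0.05, limma unadjusted p = 0.0351, adjusted p = 0.507). A second, dimmer Cryab probe set differed by -0.45 (SE 0.18, adjusted p = 0.470).

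The probe set that names both Hspb2 and Cryab, which cannot tell these genes apart, measured 6.33, 6.52, 6.97, 6.80, 6.24 and 6.28 in vehicle mice 1 to 6. It measured 5.77, 7.04, 6.12, 6.04, 6.02 and 6.18 in CM-695 mice 1 to 6, so 5 treated mice lay below all vehicle mice and mouse 2 above them. The difference was -0.33 (SE 0.20, limma adjusted p = 0.652), and -0.50 (adjusted p = 0.236) without mouse 2.

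Hspb6, the kinase substrate linked to vessel relaxation, measured 8.01, 8.64, 8.17, 8.26, 8.23 and 7.85 in vehicle mice 1 to 6. It measured 7.39, 8.77, 8.05, 7.53, 7.71 and 8.32 in CM-695 mice 1 to 6. Treated mice 1, 4 and 5 lay below the vehicle range, and mouse 2 above it. The means were 8.19 ± 0.27 and 7.96 ± 0.52 (SD, n = 6 each). The difference was -0.23 (SE 0.22, interval -0.70 to 0.24, limma adjusted p = 0.788). Without CM-695 mouse 2 it was -0.39, and it was -0.12 without CM-695 mouse 1, -0.15 without CM-695 mouse 4 and -0.14 without vehicle mouse 2. Hspb3, a muscle member that forms complexes with HSPB2, was dim, with a lowest, median and highest value of 4.38, 4.61 and 4.77 after vehicle and 4.23, 4.61 and 4.94 after CM-695. Its difference was 0.01 (SE 0.12, interval -0.25 to 0.26, adjusted p = 0.993), and a value this low does not separate weak expression from none.

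Hspb7, Hspb6 and Cryab varied together over all mice, and 15 pairs of members were examined. Within vehicle mice Cryab followed the others only weakly (r = 0.196 with Hspb7 and 0.368 with Hspb6). Over 12 mice, Pearson's r was 0.877 between Cryab and Hspb7 (Spearman's rho 0.853), 0.866 between Hspb6 and Hspb7 (rho 0.790) and 0.797 between Hspb6 and Cryab (rho 0.825), in permutation tests with 100000 resamples. Among 22179 other genes, Hspb7 ranked 15 and Hspb6 ranked 65 in likeness to Cryab. In likeness to Hspb7, Cryab ranked 53 and Hspb6 ranked 63. In likeness to Hspb6, Hspb7 ranked 26 and Cryab ranked 134. With p adjusted over all genes, the relations of Cryab (p = 0.000240, adjusted permutation p = 0.0466) and Hspb6 (p = 0.000210, adjusted p = 0.0466) to Hspb7 passed, as did 0.667% of all genes. For Spearman's rho the p was 0.000780 (adjusted p = 0.0591) and 0.00331 (adjusted p = 0.0883). The relation of Hspb6 and Cryab did not pass (adjusted permutation p = 0.126 taken from Hspb6 and 0.370 from Cryab). Taken from Cryab instead, the relation of Hspb7 had an adjusted permutation p of 0.251, since the adjustment depends on how many genes follow the reference gene.

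These passes were at the edge: leaving out any mouse other than vehicle mouse 3 for Cryab, or CM-695 mouse 3 for Hspb6, ended them (adjusted permutation p up to 0.135). The values of r stayed between 0.784 and 0.950 for Cryab and between 0.813 and 0.895 for Hspb6. Without CM-695 mice 1 and 4, the 2 farthest from the median of Hspb7, r was 0.727 and 0.741. Within groups, Cryab and Hspb7 had r = 0.990 in the 6 CM-695 mice (exact permutation p = 0.00139, the smallest that 720 pairings can give) and 0.196 in the 6 vehicle mice (exact p = 0.662). Hspb6 and Hspb7 had r = 0.948 (exact p = 0.00139) and 0.827 (exact p = 0.0306). In the same order, Hspb6 and Cryab had r = 0.928 (exact permutation p = 0.00139) and 0.368 (exact p = 0.482). Over both groups without CM-695 mice 1 and 2, r between Hspb6 and Cryab was 0.619. Whether the groups differ in these correlations was not tested.

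Hspb1 and Hspb8 had weaker correlations with Hspb7 over all mice. Hspb1 had r = 0.132 with Hspb7 (rho 0.070, permutation p = 0.680, adjusted p = 0.882), yet 0.685 once each gene was measured from the mean of its group. Hspb8 had r = -0.273 with Hspb7 (rho -0.41, permutation p = 0.389, adjusted p = 0.709), but the sign turned to 0.269 over deviations from the group means, with 0.184 in vehicle and 0.285 in CM-695 mice. Hspb1 and Hspb8 had r = 0.635 with each other (rho 0.503, p = 0.0316, adjusted p = 0.596), and 0.483 without CM-695 mice 2 and 3.

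The genes most like each member over the 12 mice, among genes brighter than the median, were taken as the 3 with the highest r, as a description. For Hspb7 they were Akap6, a scaffold of muscle membranes (0.971), the inhibitor of metalloproteinases Timp3 (0.963) and Cap2, a muscle actin regulator (0.953). For Cryab they were Lcn2 (0.962), Clip4 (0.930) and the mitochondrial aspartate-glutamate carrier Slc25a12 (0.914). For Hspb6 they were the endoplasmic reticulum stress sensor Ern1 (0.941), Sorbs2, an adaptor of the actin cytoskeleton (0.941), and 1810055G02Rik (0.930). Hspb1 was most like Tafa1 (0.919), Mllt1 (0.916) and Mob3a (0.915), and Hspb8 most like Cited4 (0.926), Dhx32 (0.909) and Arhgap35 (0.904). For Hspb3 the values were lower, with Insyn2a at 0.846, Arhgap27os3 at 0.831 and Brd1 at 0.820.

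The RNA of 2 actin genes was taken as a stand-in for muscle content, and it varied between these samples. Acta2, smooth muscle actin, had a lowest, median and highest value of 12.48, 12.91 and 13.20 after vehicle and 11.98, 12.65 and 13.59 after CM-695, a difference of -0.15 (SE 0.24, limma adjusted p = 0.887). CM-695 mouse 2 was highest of all and mouse 3 lowest. Actc1, cardiac actin, measured 10.93, 11.37, 9.61, 10.59, 11.48 and 11.10 in vehicle mice 1 to 6 and 7.38, 9.24, 10.60, 8.28, 10.10 and 9.87 in CM-695 mice 1 to 6. Treated mice 1, 2 and 4 lay below the vehicle range. The difference was -1.60 (SE 0.50, unadjusted p = 0.00666, adjusted p = 0.325). The actins varied apart from each other, with r = -0.115 (rho -0.17, permutation p = 0.719, adjusted p = 0.999). In such bulk samples fewer cells of a type and less RNA per cell cannot be told apart.

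The cell type marker lists were read in the same way. All 12 heart muscle markers were above the median of all genes in vehicle aorta although the labels name only aortic vessel. All 12 differed downward, as did 44.7% of all genes. Of them, 10 had an unadjusted p under 0.05 (4.14% of genes were lower at that level) and 0 passed the threshold. The mean of the list per mouse ran from 7.20 to 9.08 after vehicle and from 5.95 to 8.25 after CM-695. Of 9 smooth muscle markers, all above that median, 8 differed downward with 0 at an unadjusted p under 0.05, and their mean ran from 8.95 to 10.05 and from 8.48 to 10.64. Only 4 of 9 skeletal muscle markers exceeded the median, with a mean from 4.61 to 4.92 after vehicle and from 4.52 to 4.87 after CM-695. Of adipocyte, fibroblast, endothelial and immune markers, 7 of 7, 6 of 6, 6 of 6 and 5 of 6 exceeded it, and of nerve markers 1 of 4. All 6 fibroblast markers differed downward (median -0.46, 2 with an unadjusted p under 0.05, 0 past the threshold). In contrast, 4 of 4 nerve markers (median 0.40) and 5 of 6 immune markers (median 0.28) differed upward, with 0 past the threshold. Of all genes, 55.3% differed upward, with a median of 0.02. The part of these cell types in the members' differences was not tested.

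**Figure D2:**
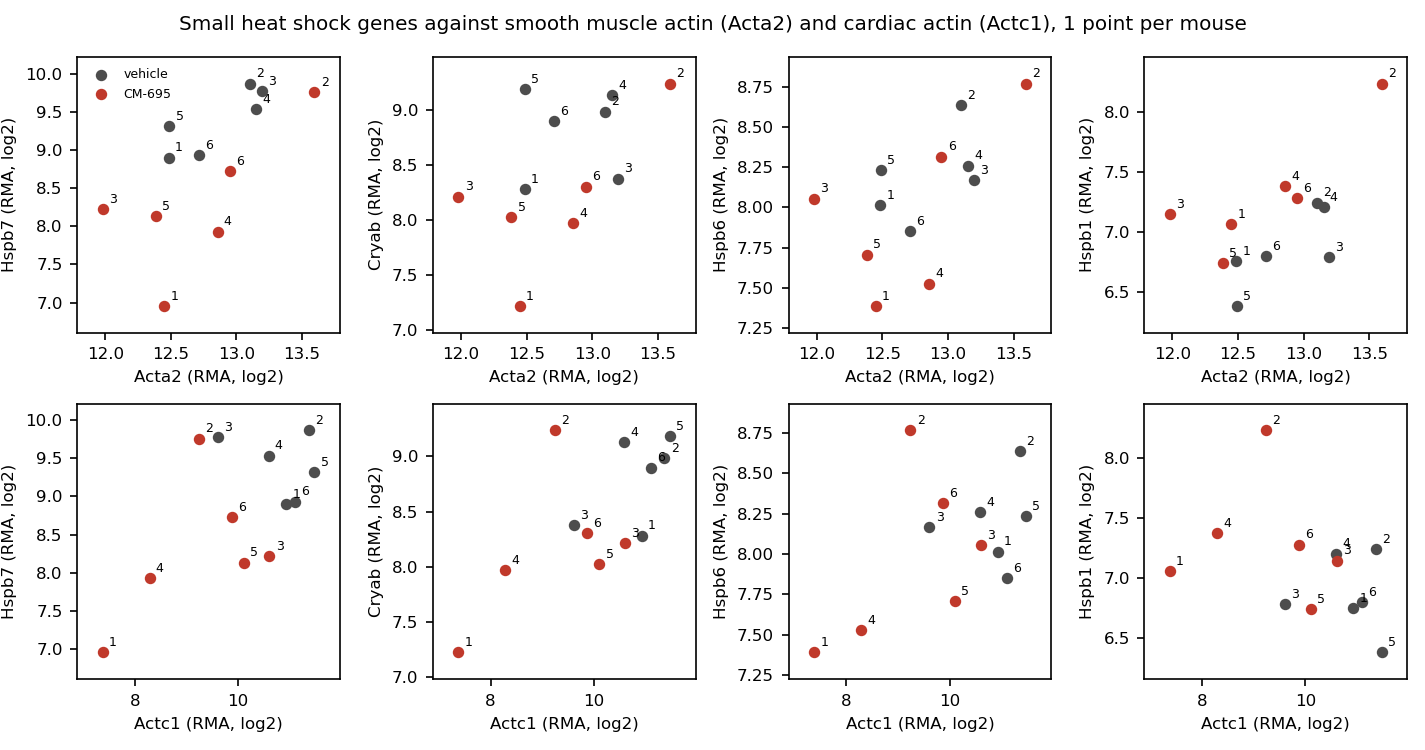
Hspb7, Cryab, Hspb6 and Hspb1 (vertical axes) against Acta2 (upper row) and Actc1 (lower row), all RMA log2 values, with 1 numbered point per mouse. The treated mice 1 and 4 have the lowest Actc1, at 7.38 and 8.28, and the treated mouse 2 the highest Acta2, at 13.59.

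In the permutation test of Pearson's r over 12 mice, adjusted over all genes, neither actin was related to a member past the threshold; 0.189% of genes passed for Actc1 and 9.36% for Acta2, and 12 relations were examined. For Actc1, r was 0.689 for Cryab (rho 0.476, permutation p = 0.0122, adjusted p = 0.664), 0.622 for Hspb7 (rho 0.434, p = 0.0308, adjusted p = 0.794) and 0.507 for Hspb6 (rho 0.301, p = 0.0931, adjusted p = 0.919). These rested on CM-695 mice 1 and 4, the 2 with Actc1 farthest from the median, without which r was 0.243, -0.04 and -0.20. The resampling over 12 mice did not keep the groups apart. Over deviations from the group means, r was 0.518 for Cryab, 0.341 for Hspb7 and 0.435 for Hspb6. In the same order it was 0.575, -0.330 and 0.185 within vehicle mice and 0.499, 0.511 and 0.507 within CM-695 mice (n = 6). For Hspb1, Hspb8 and Hspb3, r with Actc1 was -0.40 (rho -0.45, p = 0.196, adjusted p = 0.971), -0.32 (rho -0.39, p = 0.307, adjusted p = 0.989) and 0.127 (rho 0.063, p = 0.688, adjusted p = 0.999).

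For Acta2, r was 0.655 for Hspb7 (rho 0.734, permutation p = 0.0200, adjusted p = 0.129), 0.604 for Hspb6 (rho 0.671, p = 0.0373, adjusted p = 0.193), 0.604 for Hspb1 (rho 0.524, p = 0.0356, adjusted p = 0.188) and 0.513 for Cryab (rho 0.650, p = 0.0870, adjusted p = 0.325). Without CM-695 mice 2 and 3, r was 0.629, 0.587, 0.545 and 0.405. Hspb8 and Hspb3 had r of -0.11 (rho -0.23, p = 0.740, adjusted p = 0.908) and -0.06 (rho -0.10, p = 0.864, adjusted p = 0.957). Within vehicle mice r with Acta2 was 0.822 for Hspb7, 0.739 for Hspb1, 0.500 for Hspb6 and 0.0557 for Cryab (exact permutation p = 0.0819, 0.119, 0.332 and 0.871, n = 6). Within CM-695 mice it was 0.695, 0.842, 0.615 and 0.664 in the same order (exact permutation p = 0.128, 0.0444, 0.201 and 0.132, n = 6).

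The plan named slopes on 1 actin at a time, and with Acta2 and treatment in the limma fit only Hspb1 passed. With both actins and the treatment in a single limma fit, 4 of the 6 members had a slope on smooth muscle actin past the threshold. The slope on Acta2, in log2 units of the gene per log2 unit of Acta2, was 1.42 for Hspb7 (SE 0.19, adjusted p = 0.00212), 0.87 for Cryab (SE 0.19, adjusted p = 0.0267), 0.79 for Hspb1 (SE 0.18, adjusted p = 0.0287) and 0.73 for Hspb6 (SE 0.16, adjusted p = 0.0223). A positive slope on Acta2 passed in 4.17% of all genes, and in 7.92% of genes brighter than the median, a class that holds 5 of the 6 members. With Acta2 and treatment but no Actc1 in the fit, 3 of these calls were lost, at 1.11 for Hspb7 (adjusted p = 0.0693), 0.59 for Cryab (adjusted p = 0.362) and 0.53 for Hspb6 (adjusted p = 0.243). In that fit only Hspb1 passed among the 6, at 0.75 (SE 0.17, limma adjusted p = 0.0237), as did 4.23% of genes with a positive slope. In the fit with both actins, Hspb8 (0.04, SE 0.17, limma adjusted p = 0.944) and Hspb3 (0.00, SE 0.15, adjusted p = 0.998) did not pass. Their intervals there were -0.32 to 0.41 and -0.33 to 0.34. All 4 calls of the fit with both actins needed CM-695 mouse 2, the mouse richest in Acta2. Without that mouse the slopes for Hspb7, Cryab, Hspb1 and Hspb6 were 1.20, 0.52, 0.55 and 0.54 (limma adjusted p = 0.0957, 0.425, 0.397 and 0.339). Leaving out CM-695 mouse 1, vehicle mouse 1 or vehicle mouse 4 also ended the call for Cryab (adjusted p up to 0.0928), and leaving out CM-695 mouse 1 or vehicle mouse 2, 4 or 5 that for Hspb1 (up to 0.0806). The shared Hspb2 and Cryab probe set had a slope of 0.71 on Acta2 (SE 0.17, adjusted p = 0.0311), lost without CM-695 mouse 2 (0.47, adjusted p = 0.422) and also without CM-695 mouse 1 or 5 or vehicle mouse 1, 4 or 5 (adjusted p from 0.0520 to 0.158).

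On Actc1 in the same fit, the slope was 0.46 for Hspb7 (SE 0.09, limma adjusted p = 0.291), 0.41 for Cryab (SE 0.09, adjusted p = 0.465) and 0.29 for Hspb6 (SE 0.07, adjusted p = 0.626). No member passed, as few genes did (0.0812% with a positive slope). For Hspb1, Hspb8 and Hspb3 the slopes were 0.07 (SE 0.08), 0.05 (SE 0.08) and 0.04 (SE 0.07). In this joint fit Hspb7, Cryab and Hspb6 had intervals above 0 on both actins, Hspb1 on Acta2, and Hspb8 and Hspb3 on neither. The probe set that names Hspb2 and Cryab had a joint slope of 0.09 on Actc1 (SE 0.08). Its interval, -0.08 to 0.25, included 0, unlike that of the probe set that names Cryab alone. Fitted without Acta2, the slopes on Actc1 were 0.25 for Hspb7 (interval -0.18 to 0.68), 0.28 for Cryab (-0.017 to 0.58) and 0.18 for Hspb6 (-0.065 to 0.43), so each interval then included 0.

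**Figure D3:**
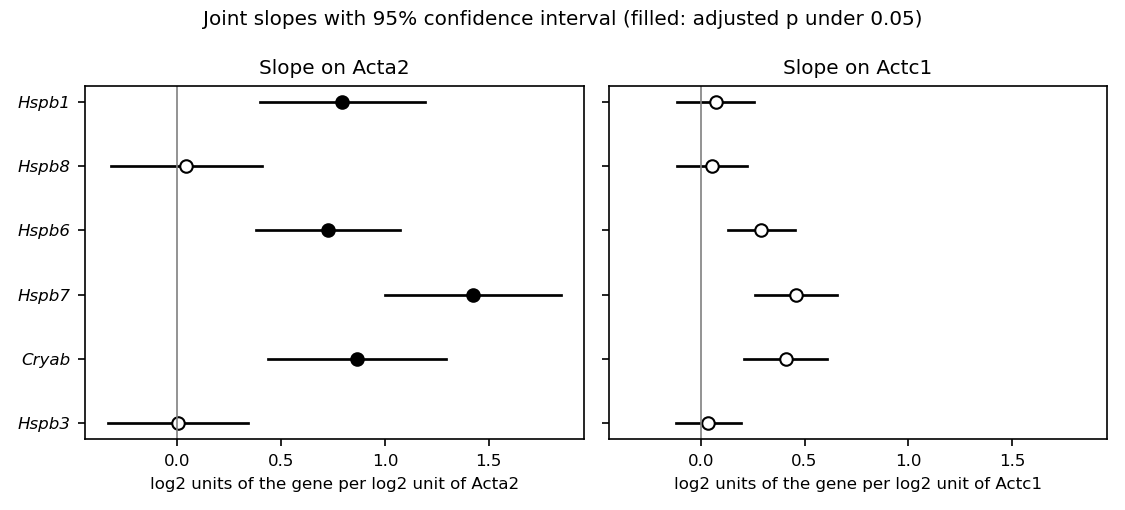
Slopes of each member on Acta2 (left) and Actc1 (right) from the limma fit with treatment and both actins, with 95% confidence intervals and filled points for adjusted p under 0.05. Hspb7 has the steepest slope on Acta2, at 1.42, and Hspb8 and Hspb3 lie near 0 in both panels.

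Held at equal Actc1 and Acta2, the treatment difference of the trio was nearer to 0 or of the opposite sign. For Hspb7 it was -0.15 (SE 0.22, interval -0.63 to 0.33, limma adjusted p = 0.928) in place of -1.10. For Cryab it was 0.14 (SE 0.22, interval -0.35 to 0.63, adjusted p = 0.934) in place of -0.65. For Hspb6 it was 0.34 (SE 0.18, interval -0.05 to 0.73, adjusted p = 0.722) in place of -0.23, and it was 0.21 and 0.22 when CM-695 mouse 2 or 3 was left out. Hspb1 and Hspb8 were farther above 0, at 0.68 (SE 0.21, interval 0.23 to 1.13, adjusted p = 0.464) and 0.44 (SE 0.19, interval 0.03 to 0.85, adjusted p = 0.645), of which Hspb8 ran from 0.23 (without CM-695 mouse 2) to 0.60 leaving out 1 mouse, and Hspb3 was at 0.06 (SE 0.17). With Actc1 alone as covariate the differences were -0.70 for Hspb7, -0.20 for Cryab and 0.06 for Hspb6, and with Acta2 alone -0.93, -0.56 and -0.15. No member passed in any of these fits, in which 0.0411% (Actc1), 0.324% (Acta2) and 0.0532% (both) of probe sets passed. Actc1 itself differed between the groups by -1.60, so treatment and Actc1 level overlap in these mice. How much of each difference belongs to either cannot be told apart.

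**Figure D4:**
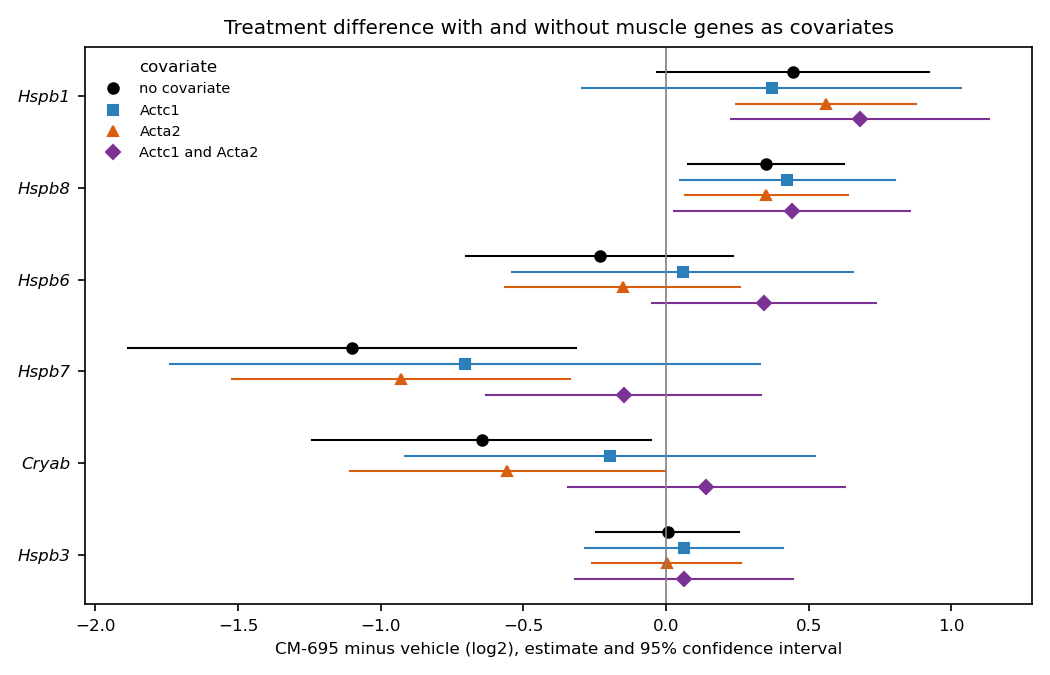
CM-695 minus vehicle in log2 units with 95% confidence intervals for the 6 members, from limma fits with no covariate, Actc1, Acta2 or both. With both actins held, the Hspb7 estimate shifted from -1.10 to -0.15, that of Cryab from -0.65 to 0.14 and that of Hspb1 from 0.45 to 0.68.

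Chaperones that use ATP, and their helpers, mostly had differences above 0 in the same mice. Of 14 measured genes, 0 passed over all probe sets, 9 were higher and 0 lower at an unadjusted p under 0.05 (4.96% and 4.14% of genes were), and the median difference was 0.33; 13 of 14 lay above 0, against 55.3% of all genes. Hspa1a, inducible HSP70, differed by 1.87 (SE 0.35, limma adjusted p = 0.0647) and its near-identical copy Hspa1b by 1.54 (SE 0.36, adjusted p = 0.141). Hspa1a averaged 4.72 after vehicle, at the array median, where weak expression and none are not separated, and 6.60 after CM-695. Hsph1, a nucleotide exchange factor of HSP70, differed by 0.97 (SE 0.22) and the HSP70-HSP90 adaptor Stip1 by 0.56 (SE 0.13). With Acta2 as covariate Hspa1a and Hspa1b passed, at 2.06 (adjusted p = 0.00281) and 1.73 (adjusted p = 0.00566), while Hspb1 did not (0.56, adjusted p = 0.168). Neither HSP70 gene passed with Actc1 as covariate (1.65 and 1.33, limma adjusted p = 0.476 and 0.636) or with both actins (2.13 and 1.83, adjusted p = 0.0619 and 0.0967). Without covariates, Hspa1a passed with dim probe sets left out (limma adjusted p = 0.0333) and with probe sets averaged per gene (adjusted p = 0.0287). Hspa1b did not pass in these runs (adjusted p = 0.0774 and 0.0813), and Hspa1a did not with the replicate number as a block (adjusted p = 0.104).

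Partners and clients of small heat shock proteins (10 of 11 measured) had a median difference of -0.18, with 9 of 10 below 0 (44.7% of all genes were) and 0 past the threshold. The sarcomere genes Ttn, which encodes titin, and Actn2, alpha-actinin 2, differed by -1.63 (SE 0.49, limma adjusted p = 0.296) and -1.35 (SE 0.46, adjusted p = 0.368), and the intermediate filament gene Des by -0.39 (SE 0.20). Hspa8, constitutive HSC70, was the 1 above 0, at 0.28 (SE 0.12, adjusted p = 0.507), and Bag3, the HSPB8 partner, differed by -0.04 (SE 0.22). At equal actins Ttn, Actn2 and Des differed by -0.26 (SE 0.18), 0.05 (SE 0.20) and 0.11 (SE 0.21).

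Genes for the kinases that phosphorylate small heat shock proteins (9 measured) had 0 past the threshold and a median difference of 0.04. Map2k3, which activates p38, differed by -0.24 (SE 0.09, limma adjusted p = 0.449), Mapkapk2 and Mapkapk3, the kinases of HSP25, by -0.26 (SE 0.15) and 0.38 (SE 0.20), and Prkd1 by 0.25 (SE 0.11). Of 4 measured genes of the heat shock factor list, 0 passed and 0 had an unadjusted p under 0.05, with Hsf2 at -0.20 (SE 0.10) and Hsf4 at 0.21 (SE 0.11); Hsf1 had no probe set of its own here. Cryaa, Hspb9, Odf1 and Hspb11, listed beside the members without a check for the alpha-crystallin domain, gave 0 of 4 past the threshold and 0 of 4 at an unadjusted p under 0.05.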

How the data were processed

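RNA of aortic tissue from 12 mice, 1 Affymetrix array each, was compared between CM-695 and vehicle. The deposited table holds log2 values for 41345 probe sets, which the authors made with RMA, per the submitters' processing notes; no source used here names the software. In the platform annotation 23521 probe sets name 1 gene, 1814 name more and 16010 carry no symbol. A gene was read from the probe set with the highest mean among those naming it alone (1082 of 22180 genes had several).

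Groups were taken from the labels, and each array is a separate mouse. The medians of the arrays ran from 4.69 to 4.74, and pairs of arrays correlated at 0.957 to 0.977. All probe sets were fitted with limma 3.58.1 in R 4.3.3 (lmFit, eBayes), with Benjamini-Hochberg adjustment over the whole table; all tests are two-sided. Slopes and differences at equal actin levels came from fits with treatment, Actc1 and Acta2. For slopes the plan had named fits with treatment and 1 actin at a time. Correlations used permutation tests with 100000 resamples in Python 3.11.15 with numpy 2.4.6, adjusted over all genes, and within a group the exact test over 720 pairings. Having 6 mice a group limits how precise any value is.

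The named genes are the members, both actins, Hspa1a and Hspa1b, up to 4 genes of each list with the smallest p, and the 3 genes most like each member; Bag3 was named after its values were seen. The members and lists were chosen with earlier results of these data known. Marker means as covariates, fits with both actins leaving out each mouse, and the alternatives for relations to Hspb7 were chosen after seeing the data.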

Additional observations from a re-analysis of the deposited data

Results flagged for a closer look

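In the probe set that names Hspb2 and Cryab, CM-695 mouse 2 measured 7.04, and its gap to the nearest treated mouse was 0.679 of the range of the 6, above Dixon's 95% critical value of 0.625. It was the 1 sample set apart in this way in 18 groups of values examined (the 6 measured members, the shared probe set and both actins, each in 2 groups), and chance sets apart about 1 in 20. Without that mouse the difference of this probe set was -0.50.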

How the results depend on the processing

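No small heat shock gene passed under any alternative run for the treatment difference. The count of probe sets past the threshold, 64, was 102 without dim probe sets, 17 with Actc1 as covariate, 134 with Acta2, 22 with both, and 22 to 98 leaving out 1 mouse. With the replicate number as a block (replicate block) it was 15, and no call of a member changed. That block lowered the limma SE from 0.22 to 0.12 for Hspb1 and from 0.36 to 0.26 for Hspb7. For Cryab it fell from 0.28 to 0.20 and for Hspb6 from 0.22 to 0.17. The SE rose from 0.126 to 0.132 for Hspb8 and from 0.116 to 0.129 for Hspb3. Over all probe sets, deviations of same-numbered mice correlated at -0.10 to 0.10, and 1 of 6 vehicle mice was closest to its own number. Whether same-numbered mice share a day or run was not tested.

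Hspb3 turned to -0.00329 with array medians subtracted and -0.00435 with quantile normalization, and ran from -0.065 to 0.077 leaving out 1 mouse, against -0.39 to -0.12 for Hspb6, -1.39 to -0.83 for Hspb7, -0.86 to -0.46 for Cryab, 0.26 to 0.56 for Hspb1 and 0.27 to 0.41 for Hspb8. With Actc1 as covariate Hspb6 turned to 0.059, Actn2 to 0.069 and Des to 0.062, and with both actins Hspb6 to 0.34, Cryab to 0.14, Actn2 to 0.046 and Des to 0.11. At equal actins, leaving out 1 mouse gave -0.34 to 0.089 for Hspb7, -0.11 to 0.29 for Cryab, -0.089 to 0.15 for Hspb3, 0.23 to 0.60 for Hspb8, 0.21 to 0.46 for Hspb6, 0.50 to 0.82 for Hspb1 and -0.27 to 0.073 for the shared probe set.

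Slopes on Actc1 fitted without Acta2 were -0.047 for Hspb1 and -0.020 for the shared probe set. Slopes on Acta2 fitted without Actc1 were -0.022 for Hspb3 and, no longer past the threshold, 0.53 for Hspb6, 1.11 for Hspb7 and 0.59 for Cryab. Leaving out 1 mouse, the joint slopes on Acta2 ran from 0.55 to 0.97 for Hspb1, -0.079 to 0.097 for Hspb3, 0.54 to 0.86 for Hspb6, 1.20 to 1.61 for Hspb7, -0.24 to 0.24 for Hspb8, 0.52 to 0.95 for Cryab and 0.47 to 0.89 for the shared probe set, and those on Actc1 from -0.0065 to 0.12 for Hspb3 and -0.017 to 0.12 for Hspb8.

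Correlations with Actc1 turned to -0.284 for Hspb3, -0.204 for Hspb6 and -0.0389 for Hspb7 without the 2 farthest mice, to 0.211 for Hspb8 over deviations from group means, to -0.106 for Hspb3, -0.330 for Hspb7 and 0.396 for Hspb8 in vehicle mice, and to 0.173 for Hspb8 in CM-695 mice. Those with Acta2 turned to 0.0166 for Hspb8 over deviations, 0.311 for Hspb8 in vehicle mice and 0.122 for Hspb3 in CM-695 mice. Leaving out 1 mouse, Hspb3 with Actc1 ran from -0.196 to 0.278, Hspb3 with Acta2 from -0.165 to 0.0281 and Hspb8 with Acta2 from -0.595 to 0.416. The relations to Hspb7 no longer passed without the 2 farthest mice (0.741 for Hspb6, 0.727 for Cryab), and for Cryab also over deviations (0.817) and with array medians subtracted (0.876); leaving out 1 mouse gave 0.813 to 0.895 and 0.784 to 0.950. The cause of these changes was not tested.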
